A study of Mus musculus with 8 samples.

Results

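The genes described here are the 9 that encode AMP-activated protein kinase (AMPK), its upstream kinases and one of its best-known substrates, found by symbol among the 18022 genes of the count table: Prkaa1, Prkaa2, Prkab1, Prkab2, Prkag1, Prkag2, Stk11, Camkk2 and Acacb. All 9 were in the table, each under 1 identifier, and all 9 passed the filter on low counts. They were followed in poly(A) RNA of mouse subcutaneous adipose tissue. There were 4 libraries with the genotype Pkd1adipo delta/delta, an adipocyte deletion (labelled KO), and 4 of Pkd1(flox/flox) controls (labelled WT), each from its own mouse. The strain of all 8 was C57BL/6J (back-crossed 4x). The deleted gene, called Pkd1 in the labels, is that of protein kinase D1 and has the symbol Prkd1. The sources used here do not give the promoter that drove the deletion, or the sex, age and diet of the mice. Libraries are written as label and replicate number, for example KO3.

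AMPK is a heterotrimer of a catalytic alpha, a scaffolding beta and a nucleotide-binding gamma subunit, which senses falling cellular energy through the binding of AMP and ADP to gamma. It is switched on by phosphorylation of the alpha subunit's activation loop by LKB1 (the product of Stk11) or by the calcium-dependent kinase CaMKK2. Once active it phosphorylates the acetyl-CoA carboxylases, which lowers malonyl-CoA and relieves the brake on fatty acid oxidation, and in fat cells it restrains lipolysis and lipid synthesis. These controls act largely on the proteins, and the counts measure transcripts only.

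Because the reads were counted per gene, the similarity of the isoforms decides how well their reads can be separated. The coding sequences of Prkaa1 and Prkaa2 were identical at 69.7% of 1638 aligned bases, those of Prkab1 and Prkab2 at 72.9% of 802, and those of Prkag1 and Prkag2 at 67.7% of 993 (GENCODE M21 transcripts). The longest stretch that a pair shares letter for letter was 35 bases in the alpha pair, 23 in the beta pair and 15 in the gamma pair. These stretches are shown because a read confined to one of them could come from either gene. Capitals mark the shared stretch, and up to 20 bases of coding sequence flank it on either side, 5′ to 3′.
Prkaa1, coding bases 20 to 94: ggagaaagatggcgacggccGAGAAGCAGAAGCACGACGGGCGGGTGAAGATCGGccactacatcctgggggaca
Prkaa2, coding bases 1 to 61: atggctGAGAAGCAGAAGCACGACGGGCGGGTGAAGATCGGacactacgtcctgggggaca
Prkab1, coding bases 341 to 403: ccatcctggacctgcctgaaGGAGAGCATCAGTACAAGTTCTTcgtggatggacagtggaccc
Prkab2, coding bases 338 to 400: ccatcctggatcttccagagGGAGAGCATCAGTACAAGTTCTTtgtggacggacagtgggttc
Prkag1, coding bases 491 to 545: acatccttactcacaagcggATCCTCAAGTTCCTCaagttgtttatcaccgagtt
Prkag2, coding bases 1181 to 1235: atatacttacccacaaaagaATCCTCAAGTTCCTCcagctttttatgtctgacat
The alpha pair differs on both flanks of its shared stretch, which lies close to the start codon in both genes, and the beta and gamma pairs differ within a few bases of theirs.

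The libraries held between 2617755 and 2873457 reads. The summed adipocyte markers (15 genes, such as Plin1 and Adipoq) stood between 27700 and 33840 CPM (TMM-scaled counts-per-million) in libraries labelled KO and between 28220 and 32210 CPM in those labelled WT. Prkd1, the targeted gene, had 71, 108, 84 and 94 reads in KO1 to KO4, against 88, 72, 94 and 73 reads in WT1 to WT4. No decrease was seen in the libraries labelled KO, so these counts, which take in the whole gene and all cells of the tissue, did not check the labels. The summed skeletal muscle markers (26 genes, all with reads) were at 3800, 2409, 514 and 4321 CPM in KO1 to KO4, against 475, 263, 674 and 159 CPM in WT1 to WT4. KO1, KO2 and KO4 thus stood apart from the other 5 libraries, and values that bear on this are given beside each result it touches. Other markers also differed between libraries. The 11 liver markers summed to 1315 to 2083 CPM in libraries labelled KO and 1705 to 3881 CPM in those labelled WT, highest in WT1. The 8 B cell and T cell markers in the table, led by Ighm, summed to 46.0 to 62.4 CPM in libraries labelled KO and to 67.8 to 134 CPM in those labelled WT, with no overlap. The part of these cells in the values below was not tested. The 5 nerve and brain markers in the table, led by Mbp, summed to 555 CPM in KO1 and to 97.3 to 198 CPM in the other libraries. Of these, Snap25 and Syt1 did not pass the filter on low counts. The 3 that did had 2 positive and 1 negative log2 fold changes. In tissue RNA, fewer cells of a type and less RNA per cell cannot be told apart.

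The comparison of the labels addresses what loss of protein kinase D1 from adipocytes does to the transcripts of this fat depot. None of the 9 AMPK genes passed the threshold, which was an adjusted p under 0.05 (edgeR quasi-likelihood test, Benjamini-Hochberg adjustment over 14556 genes). In that test 0 genes were called, or 0% of all tested, and the 9 genes each had an adjusted p of 0.998. DESeq2 called 0.247% of its genes, edgeR's likelihood ratio test 0.234% and limma-voom with sample weights 0%, with 0 of the 9 among the calls of any of them. In the table that the authors deposited, 2.42% of the genes have an adjusted p under 0.05, and 0 of the 9 do. The estimates were positive for 8 of the 9 and negative for Stk11, with a median log2 fold change of 0.19, beside a positive share of 50.1% and a median of 0.00 over all genes tested. At an unadjusted p under 0.05 there was 1 of the 9, Prkaa2, against 4.49% of all genes tested (2.71% higher and 1.77% lower in libraries labelled KO). The groups overlapped for each of the 9, whereas they did not overlap for 2.92% of all genes tested. Prkaa2 (1.47-fold), Acacb (1.32-fold) and Prkab2 (1.25-fold) had the 3 highest estimates. On simulated counts the test called 17.9% of changes of 1.5-fold, so true changes of this size can go uncalled.

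**Figure D1:**
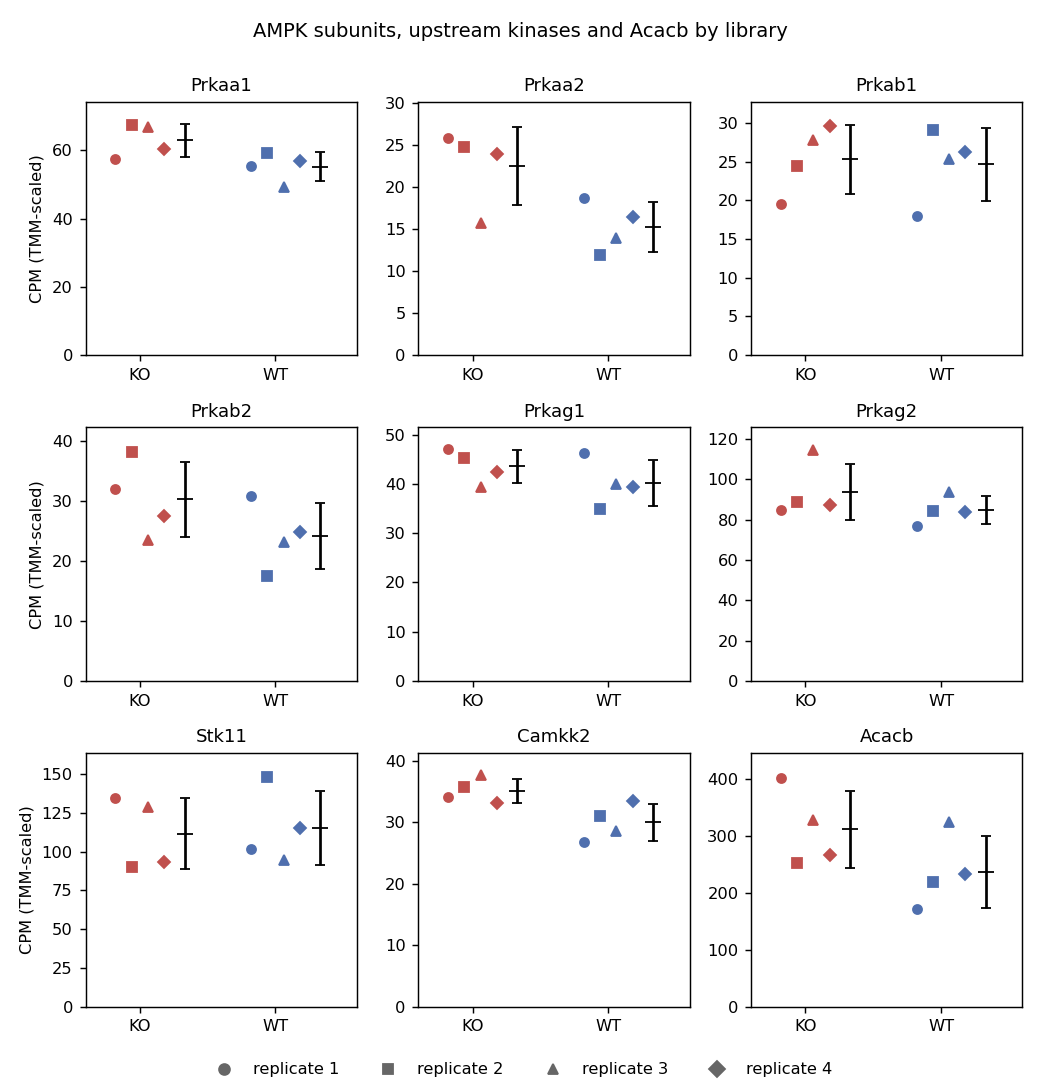
Expression of the 9 genes in CPM (TMM-scaled, linear axes from 0) in the 4 libraries labelled KO (red) and the 4 labelled WT (blue), with marker shape giving the replicate number and black bars the mean ± SD. Every panel shows overlapping groups, and Prkaa2 has 3 libraries labelled KO above all of those labelled WT with KO3 at 15.6 CPM among them.

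The catalytic subunits came first in the order of roles. Prkaa2 (ENSMUSG00000028518) encodes alpha2, the catalytic isoform that prevails in skeletal muscle. It had 70, 72, 44 and 67 reads in KO1 to KO4, against 51, 30, 39 and 45 reads in WT1 to WT4. In CPM this was 25.8, 24.7, 15.6 and 23.9 in KO1 to KO4, against 18.7, 11.9, 13.9 and 16.4 in WT1 to WT4. KO1, KO2 and KO4 lay above every library labelled WT, and KO3 lay inside their range. The means were 22.5 ± 4.63 CPM in libraries labelled KO and 15.2 ± 2.95 CPM in those labelled WT (SD, n = 4 each). This gave a log2 fold change of 0.56 ± 0.20 (SE), between 0.12 and 0.99 at 95% confidence (unadjusted p = 0.0156 and adjusted p = 0.998 by edgeR's quasi-likelihood test). The 3 high libraries are those with high muscle markers, and the part of muscle in this difference was not tested. With the muscle markers as a covariate the value was 0.11 ± 0.32 (SE). With KO3 as the single library set against the 4 labelled WT, and its spread assumed to be like theirs, it was 0.03 ± 0.32. In the authors' deposited table Prkaa2 had a log2 fold change of 0.55 and an adjusted p of 0.523.

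Prkaa1 (ENSMUSG00000050697) encodes alpha1, the isoform of most other tissues and the main one of fat. It stood at 57.4, 67.3, 66.8 and 60.3 CPM in KO1 to KO4, against 55.4, 59.3, 49.3 and 56.9 CPM in WT1 to WT4. KO2, KO3 and KO4 lay above every library labelled WT and KO1 did not. The means were 62.9 ± 4.91 and 55.2 ± 4.25 CPM in libraries labelled KO and WT (SD, n = 4 each), and the log2 fold change was 0.19 ± 0.12 (SE), with a 95% interval from -0.07 to 0.44. Here KO3, with few muscle reads, was as high as KO2, and the value was 0.37 ± 0.19 with the muscle covariate and 0.27 ± 0.20 without KO1, KO2 and KO4. An antisense gene, Gm15938, lies over part of Prkaa1, and its 110, 144, 123 and 108 reads in KO1 to KO4, against 104, 103, 92 and 95 in WT1 to WT4, followed a similar order of libraries. The kit does not mark strand, so that reads of Prkaa1 and Gm15938 could not be told apart where the genes meet. In GENCODE M21 their exons share 0 bases, but the sources used here do not give the annotation used for counting.

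The beta subunits hold the complex together and bind glycogen. Prkab2 (ENSMUSG00000038205), for beta2, which like alpha2 is abundant in muscle, had 87, 111, 66 and 77 reads in KO1 to KO4, against 84, 44, 65 and 68 reads in WT1 to WT4. Its CPM was 32.0, 38.1, 23.5 and 27.5 in KO1 to KO4, against 30.8, 17.5, 23.2 and 24.8 in WT1 to WT4. Only KO1 and KO2 lay above the highest library labelled WT, and KO3 stood beside WT3. This gave a log2 fold change of 0.33 ± 0.19 (SE), with a 95% interval from -0.09 to 0.74. It was 0.02 ± 0.32 with muscle markers as a covariate, turned to -0.04 without KO1, KO2 and KO4, and was 0.19 without KO2 and 0.20 without WT2.

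Prkab1 (ENSMUSG00000029513), for beta1, was at 19.5, 24.4, 27.7 and 29.6 CPM in KO1 to KO4, against 18.0, 29.0, 25.4 and 26.3 CPM in WT1 to WT4. The lowest library of each label was the one with replicate number 1, and the ranges of the labels were nearly the same. Its log2 fold change was 0.04 ± 0.18 (SE), with a 95% interval from -0.36 to 0.43, and its sign turned without KO3, KO4 or WT1 (-0.01, -0.04 and -0.09). It was 0.24 ± 0.30 with the muscle covariate and 0.17 ± 0.28 with KO3 against WT alone. The 2 beta genes did not share an order of libraries: KO1 and WT1, lowest for Prkab1, were second in Prkab2 within KO and first within WT. An antisense gene, Gm14508, lies over part of Prkab1 and had 287 reads over all 8 libraries. In GENCODE M21 their exons share 0 bases. As for Prkaa1, reads could not be told apart by strand where the genes meet.

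The gamma subunits carry the nucleotide-binding sites. Prkag1 (ENSMUSG00000067713), for the widespread gamma1, was at 47.1, 45.3, 39.5 and 42.4 CPM in KO1 to KO4, against 46.2, 35.02, 40.03 and 39.4 CPM in WT1 to WT4. WT2 was the low library here, and the labels overlapped almost fully. Its log2 fold change was 0.12 ± 0.13 (SE), with a 95% interval from -0.17 to 0.40, and it was -0.06 with the muscle covariate and -0.03 with KO3 against WT alone. It was 0.06 without WT2 and 0.19 without WT1.

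Prkag2 (ENSMUSG00000028944), for gamma2, known for mutations that cause a glycogen-storing heart disease in humans, was at 85.0, 88.9, 114 and 87.0 CPM in KO1 to KO4, against 76.7, 84.4, 93.6 and 83.5 CPM in WT1 to WT4. KO3, with 322 reads, stood far above the other libraries labelled KO, which lay inside the range of those labelled WT. The log2 fold change was 0.15 ± 0.13 (SE), with a 95% interval from -0.13 to 0.43. It was 0.04 without KO3, 0.44 ± 0.19 without KO1, KO2 and KO4, and 0.37 ± 0.19 with the muscle covariate. Its exons overlap those of the antisense genes Prkag2os2 and Prkag2os1, which had 86 and 40 reads over all 8 libraries, so some of these reads are uncertain. Exons of Prkag1, 2175 bases in all, likewise overlap those of an antisense gene, B130046B21Rik, for 950 bases. That gene was not among the genes of the table, and any reads of it could not be told apart from those of Prkag1 there. The level of Prkag1 and the gamma shares below carry this uncertainty.

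Prkag3, the gamma3 gene of fast skeletal muscle and no member of the 9, had 14, 28, 7 and 23 reads in KO1 to KO4, against 26, 14, 23 and 29 reads in WT1 to WT4. It was highest in WT4 (10.6 CPM), the library with the lowest muscle markers, and at 5.15 CPM in KO1 and 8.20 CPM in KO4, those with the highest. It was lowest in KO3 (2.49 CPM), which had the lowest muscle markers of the libraries labelled KO. Its log2 fold change was -0.41 ± 0.35 (SE), with a 95% interval from -1.16 to 0.34, and between -0.69 without KO2 and -0.15 without KO3. Of the 3 subunit genes known for their abundance in muscle, Prkaa2 thus had its 3 highest values in KO1, KO2 and KO4, and Prkab2 had 2 of its 3 highest there. Prkag3 had 1 of its 3 highest there, at KO2, and its values rest on 7 to 29 reads per library. The part of muscle in these values was not tested.

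**Figure D2:**
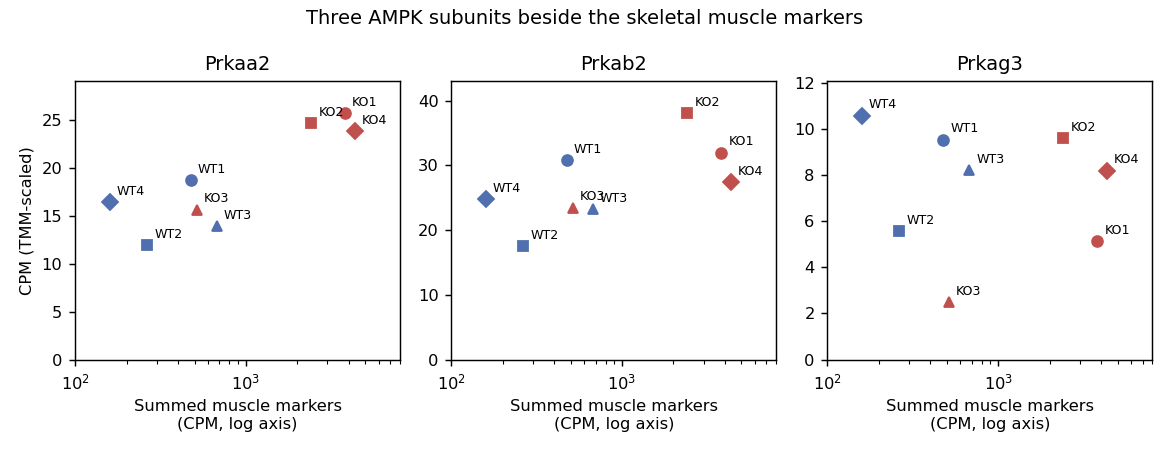
CPM of Prkaa2, Prkab2 and Prkag3 (linear axes from 0) against the summed CPM of 26 skeletal muscle markers (log axis) in each library labelled KO (red) or WT (blue). For Prkaa2 the libraries KO1, KO2 and KO4 sit at the upper right, with KO3 at 15.6 CPM among those labelled WT. For Prkag3 the highest library is WT4 at 10.6 CPM, the one with the lowest markers, and the lowest is KO3 at 2.49 CPM.

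Levels of different genes were compared per kilobase of exon. In libraries labelled KO the order was Acacb at 32.3 ± 7.04 CPM per kilobase, Stk11 at 24.4 ± 5.06, Prkag1 at 20.03 ± 1.54, Prkag2 at 14.5 ± 2.14, Prkaa1 at 13.5 ± 1.05, Prkab1 at 8.25 ± 1.45, Prkab2 at 5.94 ± 1.23, Camkk2 at 3.22 ± 0.18 and Prkaa2 at 2.82 ± 0.58 CPM per kilobase (SD, n = 4). In libraries labelled WT, Stk11 (25.1 ± 5.21 CPM per kilobase) and Acacb (24.6 ± 6.57) changed places and the rest of the order was the same, down to Prkaa2 at 1.91 ± 0.37 CPM per kilobase (SD, n = 4). In libraries labelled KO, neighbours in this order overlapped in mean ± SD except Prkag1 above Prkag2, Prkaa1 above Prkab1 and Prkab2 above Camkk2. These places depend on the lengths used, which were the sums of all exons of a gene. With the longest transcript in their place, none of these 3 separations held in libraries labelled KO. Prkag2 (28.2 ± 4.16 CPM per kilobase) then overlapped Prkag1 (26.4 ± 2.02), Prkab1 (12.1 ± 2.12) overlapped Prkaa1 (13.5 ± 1.05), and Camkk2 (7.24 ± 0.40) stood above Prkab2 (6.04 ± 1.26; SD, n = 4). The length of Camkk2 was 10921 bases by all exons and 4861 bases by its longest transcript.

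Within each subunit the shares of the isoforms were taken on the same scale, and the ranges of the labels overlapped. Alpha2 made up 20.8%, 17.7%, 12.0% and 18.8% of the alpha transcripts in KO1 to KO4, against 16.5%, 10.5%, 14.2% and 14.4% in WT1 to WT4. Alpha1 was therefore the larger part in every library. KO1, KO2 and KO4, which had high muscle markers, lay above every library labelled WT in alpha2 share. The alpha2 share of KO3 was lower than in 3 libraries labelled WT. The mean alpha2 shares were 17.3 ± 3.75% in libraries labelled KO and 13.9 ± 2.48% in those labelled WT (SD, n = 4 each). The part of muscle in this difference was not tested. Beta2 made up 49.7%, 48.5%, 33.7% and 35.8% of the beta transcripts in KO1 to KO4, against 50.8%, 26.6%, 35.5% and 36.2% in WT1 to WT4. The beta share split both labels: KO1, KO2 and WT1 were close to equal parts of the 2 isoforms, and the other 5 libraries held more beta1. Gamma2 made up 37.7%, 39.7%, 49.3% and 40.8% of gamma1 plus gamma2 in KO1 to KO4, against 35.8%, 44.7%, 44.0% and 41.6% in WT1 to WT4. The mean gamma2 shares were 41.9 ± 5.13% in libraries labelled KO and 41.5 ± 4.06% in those labelled WT (SD, n = 4 each). These shares are descriptions with no test, and their level, but not the order of libraries, depends on the gene lengths chosen.

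**Figure D3:**
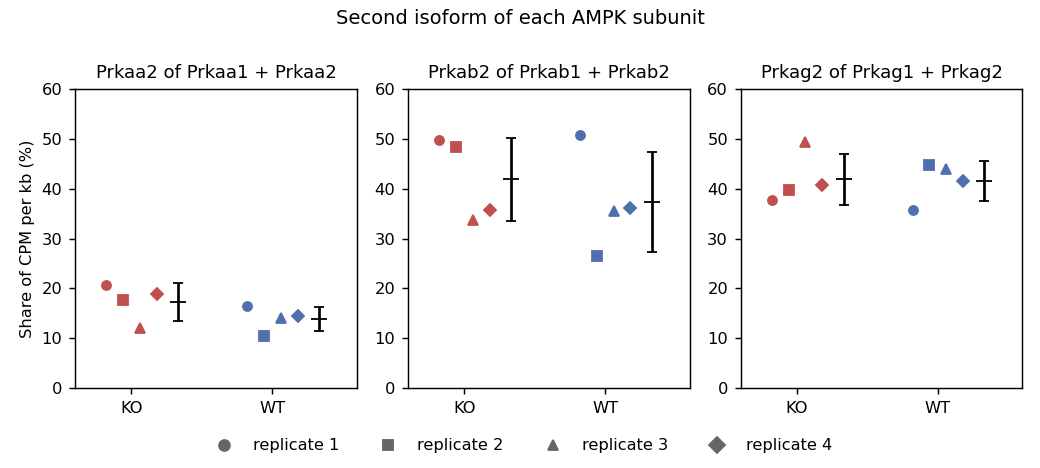
Share of the second isoform of each AMPK subunit in the sum of the 2 isoforms, in percent of CPM per kilobase of exon (axes from 0), by library, with libraries labelled KO in red and WT in blue, marker shape for the replicate number and black bars for mean ± SD. The alpha2 share lies between 10.5% and 20.8%, and the beta2 share is near 50% in KO1, KO2 and WT1.

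The upstream kinases had different patterns. Camkk2 (ENSMUSG00000029471), the kinase that activates AMPK when calcium rises, was at 34.2, 35.7, 37.7 and 33.2 CPM in KO1 to KO4, against 26.8, 31.0, 28.6 and 33.6 CPM in WT1 to WT4. The libraries labelled KO were close together, and 3 of the 4 labelled WT lay below all of them, with WT4 inside their range. The means were 35.2 ± 1.97 and 30.0 ± 2.95 CPM in libraries labelled KO and WT (SD, n = 4 each). The log2 fold change was 0.23 ± 0.13 (SE), with a 95% interval from -0.05 to 0.51. KO3 had the highest value of all 8, and the value was 0.43 ± 0.21 with the muscle covariate and 0.33 ± 0.23 with KO3 against WT alone.

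Stk11 (ENSMUSG00000003068) encodes LKB1, the tumour suppressor kinase that phosphorylates AMPK under energy stress. It was at 135, 90.3, 129 and 93.4 CPM in KO1 to KO4, against 102, 148, 94.7 and 116 CPM in WT1 to WT4. High and low libraries occurred in both labels, and the highest was WT2. Its log2 fold change was -0.04 ± 0.17 (SE), with a 95% interval from -0.41 to 0.33, and its sign turned with the muscle covariate (0.26), without KO1, KO2 and KO4 (0.16), and without KO2 (0.05), KO4 (0.04) or WT2 (0.10). Exons of Cbarp lie over those of Stk11 on the other strand for 232 bases. Cbarp had 64 reads in KO1, beside 366 reads of Stk11 there. In the other libraries it had 10 to 24 reads, beside 262 to 373 reads of Stk11. Without KO1 the log2 fold change of Stk11 was -0.14. The part of Cbarp reads in the Stk11 counts was not tested. KO1 was also the library with high summed nerve and brain markers, and a link between Cbarp and these markers was not tested.

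Acacb (ENSMUSG00000042010) encodes acetyl-CoA carboxylase 2, the mitochondrial isozyme whose malonyl-CoA inhibits the entry of fatty acids for oxidation and which AMPK inactivates by phosphorylation. It had 1089, 735, 920 and 745 reads in KO1 to KO4, against 469, 550, 905 and 637 reads in WT1 to WT4. In CPM this was 401, 252.3, 327 and 266 in KO1 to KO4, against 172, 219, 323 and 232 in WT1 to WT4. All libraries labelled KO lay above 3 of those labelled WT, and WT3 stood as high as KO3. The means were 311 ± 67.8 CPM in libraries labelled KO and 237 ± 63.3 CPM in those labelled WT (SD, n = 4 each). The log2 fold change was 0.40 ± 0.20 (SE), between -0.03 and 0.82 at 95% confidence (unadjusted p = 0.0657 by edgeR's quasi-likelihood test). It was 0.25 without KO1, 0.27 without WT1 and 0.58 ± 0.19 without WT3, where the adjusted p was 0.753, and in the authors' deposited table it was 0.39 with an adjusted p of 0.83. It was 0.30 ± 0.31 with the muscle covariate and 0.47 ± 0.28 with KO3 against WT alone.

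**Figure D4:**
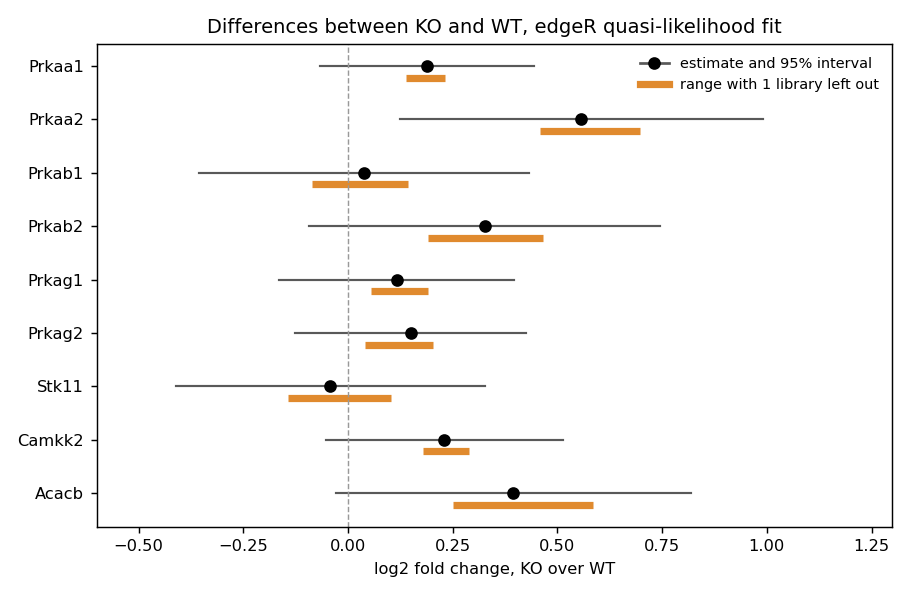
Log2 fold change, KO over WT, of each of the 9 genes in edgeR's quasi-likelihood fit of all 8 libraries (black points) with its 95% interval (grey lines), and the range of estimates when 1 library is left out (orange bars). The interval of Prkaa2, from 0.12 to 0.99, lies above 0 before adjustment for the number of genes, the others span 0, and the orange bars of Prkab1 and Stk11 cross 0.

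The cytosolic isozyme, Acaca, which supplies malonyl-CoA to fatty acid synthesis, was at 331, 396, 295 and 474 CPM in KO1 to KO4, against 202, 281, 341 and 385 CPM in WT1 to WT4. Its log2 fold change was 0.31 ± 0.20 (SE), and 0.17 without KO4 or 0.16 without WT1. The libraries stood in another order than for Acacb. KO1, highest for Acacb, lay below KO2, KO4, WT3 and WT4 for Acaca, and KO4, highest for Acaca, lay below KO1, KO3 and WT3 for Acacb. WT1 was the lowest library for both.

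The other genes of the pathway were centred near 0. Of the 46 genes of 4 lists, 45 were tested, 28 with positive and 17 with negative log2 fold changes and a median of 0.02, and 0 passed in either direction at an adjusted p of 0.05, as under each of the alternative settings. At an unadjusted p under 0.05 there was 1 of the 45, against 4.49% of all genes tested. This gene was Sesn2, the sestrin that is induced by stress and linked to AMPK activation. It was at 40.9 ± 8.68 CPM in libraries labelled KO and at 52.4 ± 4.21 CPM in those labelled WT (SD, n = 4 each), with a log2 fold change of -0.36 ± 0.16 (SE), and -0.23 without KO2. The 10 further subunits and upstream partners had 3 positive and 7 negative values and a median of -0.05. Among them were Camkk1, the sister kinase of Camkk2, at -0.28 ± 0.30 on 8 to 17 reads, and Cab39, the MO25 scaffold of LKB1, at -0.11 ± 0.12 (SE). The 3 genes of the folliculin complex, a nutrient-sensing regulator that interacts with AMPK, were positive with a median of 0.20. Flcn itself was at 51.5, 37.8, 39.1 and 37.4 CPM in KO1 to KO4, against 36.3, 33.4, 36.5 and 36.8 CPM in WT1 to WT4. Its groups did not overlap, as for 2.92% of all genes tested. Of its libraries labelled KO, 3 were within a few CPM of those labelled WT. Its log2 fold change was 0.21 ± 0.14 (SE), and 0.09 without KO1. Fnip1 and Fnip2, the partners of folliculin, had 0.20 ± 0.27 and 0.04 ± 0.18.

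Of 21 AMPK substrates and effectors, 13 were positive and 8 negative, with a median of 0.03. Acaca, described above, had the highest value. Tbc1d4, the Rab regulator of glucose transporter traffic, had 0.16 ± 0.13 and Tfeb, a lysosomal transcription factor, 0.14 ± 0.16 (SE). Of the 12 AMPK-related kinases that LKB1 also activates, 11 were tested, with 9 positive and 2 negative values and a median of 0.03. The value furthest from 0 was that of Brsk1, a kinase of neurons, at 0.85 ± 0.55 (SE). Brsk1 had 48 reads in KO1, where the sum of nerve and brain markers, led by Mbp, was high. It had 8, 18 and 12 in KO2 to KO4, against 7, 11, 18 and 10 in WT1 to WT4. Without KO1 its log2 fold change was 0.07, and a link between Brsk1 and these markers was not tested. Nuak2, Sik1 and Sik3 had -0.25 ± 0.29, -0.13 ± 0.15 and 0.09 ± 0.13 (SE).

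**Figure D5:**
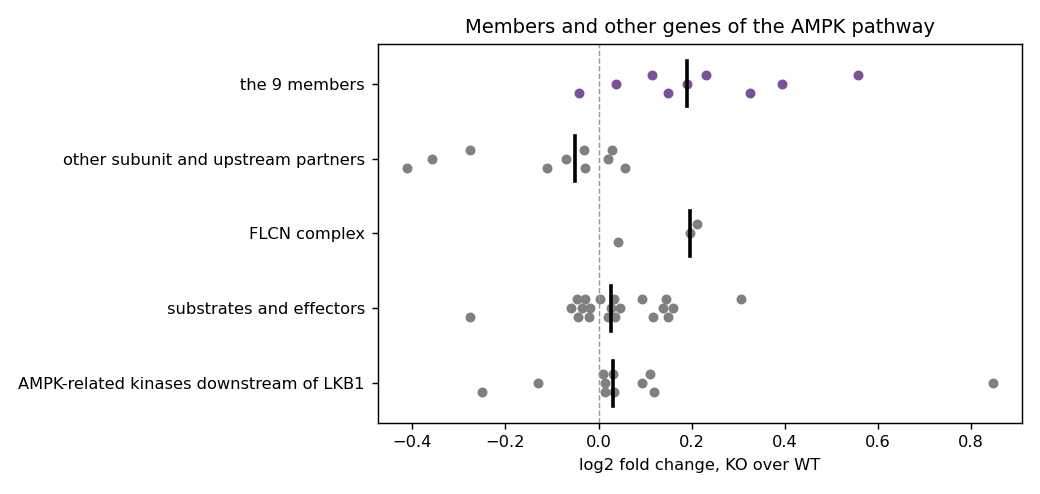
Log2 fold change, KO over WT, of the 9 genes (purple) and of the 45 tested genes of 4 other AMPK pathway lists (grey), each point 1 gene, spread vertically only for legibility, with black bars at the list medians. The medians are 0.19 for the 9 genes and -0.05, 0.20, 0.03 and 0.03 for the other lists from top to bottom, and the outlying point at 0.85 is Brsk1.

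The genes closest to a member in pattern were found by the root mean square difference of log2 CPM, each gene centred on its mean over the 8 libraries, among genes that vary at least as much. For Prkaa2, whose SD over the libraries was 0.40 on the log2 scale, they were Gm15612 (0.13), Speg (0.19) and Ssx2ip (0.19). Speg, a kinase of striated muscle, was at 21.3, 17.9, 11.0 and 24.2 CPM in KO1 to KO4, against 12.5, 7.56, 11.1 and 12.8 CPM in WT1 to WT4. Like Prkaa2 it was lowest in KO3 and WT2 within the labels, which follows from the choice by likeness. Gm15612 is an antisense gene with 6 to 16 reads per library, and its value is uncertain. For Prkaa1 the closest were Stk40 (0.06), Pcgf5 (0.07) and Slc12a9 (0.07), beside an SD of 0.14. For Acacb they were Thpo (0.15), Dbndd1 (0.18) and Il3ra (0.18), beside an SD of 0.38. All 9 of these genes had positive log2 fold changes, which follows from the likeness, and none passed (adjusted p = 0.998 in edgeR's quasi-likelihood test).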

How the data were processed

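The 8 libraries were made from poly(A) RNA with a kit that leaves strand unmarked, per the labels' protocols. FastQC, Bowtie2, edgeR and the build mm9 are named in the submitters' processing notes without versions. The sources used here do not give the counter or the annotation. The authors deposited raw counts of reads per Ensembl gene, with no normalization. They also deposited a table with log2 fold changes, log2 mean expression, p-values and adjusted p-values per gene. Lengths, overlaps and coding sequences came from GENCODE M21, which is of another build, so no coordinates are printed.

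Columns were matched to samples by mouse label and groups taken from the titles. Replicates of a label differed beyond counting noise (chi-square of at least 4.45 per gene), and each is 1 mouse per the labels. The main test was edgeR 4.0.16 (R 4.3.3): TMM, filterByExpr (14556 of 18022 genes), robust quasi-likelihood F test, label as the only term, Benjamini-Hochberg adjustment. On simulated counts it called 17.9% of changes of 1.5-fold, 76.1% of 2-fold and 97% of 4-fold, with 4 false calls. A standard error is the size of the log2 fold change divided by the square root of F. The dispersion corresponds to a biological coefficient of variation of 18.4%. Alternatives used DESeq2 1.42.0, limma 3.58.1, other scalings and filters, a replicate block, a muscle covariate and libraries left out.

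The members and lists were chosen with earlier results of these data known. Named are the 9 members, up to 4 genes with the smallest p of each pathway list (1 is not reported here), the 3 genes closest in pattern to Prkaa1, Prkaa2 and Acacb, and Prkd1; Prkag3 is the second of its list. The replicate numbers do not mark the same animals. The correlations of same-numbered libraries' deviations were -0.144, -0.291, -0.194 and -0.268, so the numbers do not pair the samples.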

Additional observations from a re-analysis of the deposited data

Results flagged for a closer look

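The level of Prkag2 in KO3 was 114.5 CPM, and its gap to the nearest other library labelled KO was 0.867 of the range of the 4, above Dixon's 95% critical value for a group of 4. It was the only value to pass this limit among 26 groups of 4 libraries looked at, and chance flags about 1 group in 20.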

How the results depend on the processing

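None of the 9 genes and none of the other pathway genes was called under any setting run, but the count over all genes was not stable. DESeq2 called 32 higher and 4 lower, edgeR's likelihood ratio test 30 and 4, and leaving out 1 library gave between 0 (without KO1, for example) and 50 higher (without KO3) and 0 lower. The cause was not tested. Of 200 log2 fold changes of the 9 genes and Prkd1 under an alternative, 186 kept direction and side of the threshold and 14 turned sign. These were Prkab1 without KO3 (-0.008), KO4 (-0.044) and WT1 (-0.087), Prkab2 without KO1, KO2 and KO4 (-0.041), Prkag1 with the muscle covariate (-0.057) and without KO1, KO2 and KO4 (-0.027), and Stk11 with the covariate (0.263), without KO1, KO2 and KO4 (0.162), and without KO2 (0.047), KO4 (0.036) or WT2 (0.102). Prkd1 turned with the covariate (-0.093), without KO1, KO2 and KO4 (-0.022) and without KO2 (-0.024). With 1 library left out, Prkab1 ranged from -0.087 to 0.144, Stk11 from -0.143 to 0.102 and Prkd1 from -0.024 to 0.145. Positive values numbered 7 to 9 of 9 over the settings. With the replicate number as a block, 0 of the 9 were called, 0 genes were called in all, and Prkaa2 had 0.55; the numbers do not pair the samples. Without division by length the mean shares were 26.3% and 21.6% for alpha2, 54.3% and 49.3% for beta2, and 68.0% and 67.8% for gamma2 in libraries labelled KO and WT. With the longest transcript they were 33.5% and 29.4% for beta2, and 51.5% and 51.1% for gamma2 in libraries labelled KO and WT. The share means with 1 library left out, a setting chosen after seeing the data, stayed within 1 SD. Depth limits the precision for Prkaa2, with 30 to 72 reads per library, and Prkab2, with 44 to 111.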
